A study of Homo sapiens with 32 samples.

Results

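The 10 transcripts described here encode enzymes, or relatives of enzymes, that release arachidonic acid from membranes and turn it into prostaglandins or into lipoxygenase products. They were PLA2G4A, PLA2G4E, PTGS1, PTGS2, PTGES, HPGD, ALOX5, ALOX12, ALOX15 and ALOX15B, taken by gene symbol as 10 of the 19345 symbols in the table. The cells were EPC2, a human esophageal epithelial line immortalised with telomerase, of wild-type genotype in every group. RNA came from 10 monolayer libraries taken at day 0 before seeding, from 9 libraries of Matrigel spheroids at day 3 (D3), from 7 libraries of untreated spheroids at day 11 (D11) and from 6 libraries of D11 spheroids given the cytokine interleukin 13 (IL-13, 20 ng/ml) over days 3 to 11. Monolayer, D3 and untreated D11 cells received no IL-13. All spheroids grew in keratinocyte serum-free medium with added calcium, so the embedding in gel, the calcium and the days in culture cannot be told apart. Everything rests on 1 line, and the cultures hold no added stromal or immune cells.

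Eicosanoids are signalling lipids made from arachidonic acid. Cytosolic phospholipases cut it from phospholipids, cyclooxygenases (the PTGS enzymes) turn it into prostaglandin H, and terminal synthases such as PTGES make the active prostaglandins from that intermediate, while HPGD oxidises prostaglandins and so ends their action. Lipoxygenases (the ALOX enzymes) instead add oxygen to the fatty acid directly, giving hydroperoxides, leukotriene precursors and, in stratified epithelia, lipids of the barrier. IL-13 is a type 2 cytokine active in allergic inflammation of the esophagus.

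The values were TPM, which correct each transcript for its length and scale each library to a common total, so levels can be set side by side between genes. The reads behind a value are unknown, so it has no counting interval. Differences are on the scale of log2(TPM + 1), which understates the change of low genes, and were fitted with limma over all 32 libraries with group and batch as terms. Adjusted p-values are Benjamini-Hochberg values over all 12221 genes kept, which reached 1 TPM in at least 6 libraries. Of the 10 members 8 were kept, PLA2G4A only through its D3 libraries and PLA2G4E only through spheroids, and ALOX5 and ALOX15 were not. HPGD and ALOX15B were under 1 TPM in all monolayer libraries, and PTGES in all but 1. A gene kept through the group where it is high had to differ from the rest. For PLA2G4A and PLA2G4E, p-values of D3 against monolayer and of untreated D11 against D3 therefore come from a fit with no filter. So does that of PLA2G4E in untreated D11 against monolayer. Their other p-values and all counts of calls come from the fit after the filter unless stated. The calls of PTGES, HPGD and ALOX15B were the same in the fit with no filter. The labels do not say whether libraries of a group came from separate cultures, so p-values measure the spread between these libraries, which may be technical. In bulk RNA, fewer cells of a type and less RNA per cell cannot be told apart.

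The 10 markers of esophageal epithelium summed to 19162 to 83788 TPM, mostly from the basal keratins KRT5 and KRT14, which every group carried. In the monolayer the squamous differentiation markers KRT4, CRNN and DSG1 were listed at 0, and the means of KRT13 and IVL were 0.11 and 0.63 TPM. In the spheroid groups the mean of each of the 10 was 11.4 TPM or more. The mast cell genes CPA3, KIT and FCER1A and the endothelial gene PECAM1 were listed at 0 in all libraries, and the 9 granulocyte and eosinophil markers summed to 0.2 to 1.2 TPM. Of 7 fibroblast markers only COL1A1 was kept, COL1A2 and COL3A1 were listed at 0, and the sum was 3.4 to 9.6, 8.1 to 30.4, 58.0 to 78.1 and 22.0 to 46.9 TPM in monolayer, D3, untreated D11 and IL-13 libraries. Of 8 monocyte markers CD14, CD68 and CSF1R were kept (sums of 195.5 to 284.5, 221.5 to 267.1, 521.6 to 587.3 and 435.4 to 559.1 TPM in the same order), with PTPRC at 0.1 TPM or less. The part of such cells in the results was not tested. Mitochondrial transcripts took 44.8 to 50.1% of the monolayer total, 39.1 to 57.1% at D3, 14.8 to 27.9% in untreated D11 spheroids and 13.2 to 25.6% with IL-13, and their part in the differences was not tested beyond removing them. The D3 libraries fell into 5 with the differentiation gene IVL at 30.2 to 43.0 TPM (libraries 1, 3, 4, 5 and 6) and 4 with IVL at 3.6 to 6.1 TPM (libraries 2, 7, 8 and 9). Libraries 4 and 7 thereby stood with the other batch, and whether their batch labels or names were exchanged cannot be told. Every within-batch value and batch difference that involves D3 takes those labels as given, and results that rest on D3 were fitted again without both libraries. Library 1 of the IL-13 group stood apart from the other 5, with IVL at 184.2 against 45.2 to 89.5 TPM and KRT13 at 100.1 against 205.4 to 278.0 TPM.

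Between monolayer and D3 spheroid, 5 of the 8 tested members rose (PTGES, HPGD, ALOX15B, PLA2G4A and PLA2G4E) and 2 fell (PTGS2 and ALOX12), while PTGS1 was not called. Of all genes 81% were called, 12.7% as higher and 68.2% as lower. The median difference was 0.79 over the members and -0.44 over all genes, and neither it nor the count is support for a rise, since PLA2G4A and PLA2G4E were kept through the groups where they were high. Without PLA2G4A and PLA2G4E, 3 members rose and 2 fell. The 3 that rose (PTGES, HPGD and ALOX15B) were also kept through spheroids, where they were high, so this count is no support either. In the next 2 comparisons PLA2G4A and PLA2G4E were again left out. Then 4 rose and 1 fell from D3 to untreated D11, and 3 were higher and 3 lower in untreated D11 than in the monolayer. The 3 higher there were again PTGES, HPGD and ALOX15B. From D3 to untreated D11, 5 rose (PTGS2, PTGES, HPGD, ALOX12 and PLA2G4E), 2 fell (PTGS1 and PLA2G4A) and ALOX15B was not called, with 69.3% of all genes called, 33.6% higher and 35.8% lower, and medians of 0.51 and -0.02. Untreated D11 against monolayer had 4 higher (PTGES, HPGD, ALOX15B and PLA2G4E), 3 lower (PTGS2, PTGS1 and ALOX12) and PLA2G4A not called. All genes were called in 84.5%, 21% higher and 63.5% lower, with medians of 1.03 over the members and -0.48 over all genes.

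With IL-13, HPGD and ALOX15B rose, PTGS1, PTGS2 and PLA2G4E fell, and PTGES, ALOX12 and PLA2G4A were not called. The PLA2G4E call was at the edge of the threshold and was lost in the fit with no filter. Over all genes 47.6% were called, 39.2% as higher and 8.49% as lower. The median difference was -0.20 over the members and 0.19 over all genes. Scaling by median of ratios brought the median of all genes to 0.0006 for IL-13, to -0.0052 for D3 against monolayer and to -8.4e-05 for untreated D11 against monolayer, and each member was read under that scaling too. The share of calls turned with it: 4061 genes rose and 4051 fell from monolayer to D3 in place of 1556 and 8339, 4902 and 4915 in place of 2561 and 7765 between untreated D11 and monolayer, and 2348 and 2521 in place of 4785 and 1037 with IL-13. With mitochondrial genes removed, 1663 rose and 8018 fell from D3 to untreated D11 in place of 4102 and 4370.

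**Figure D1:**
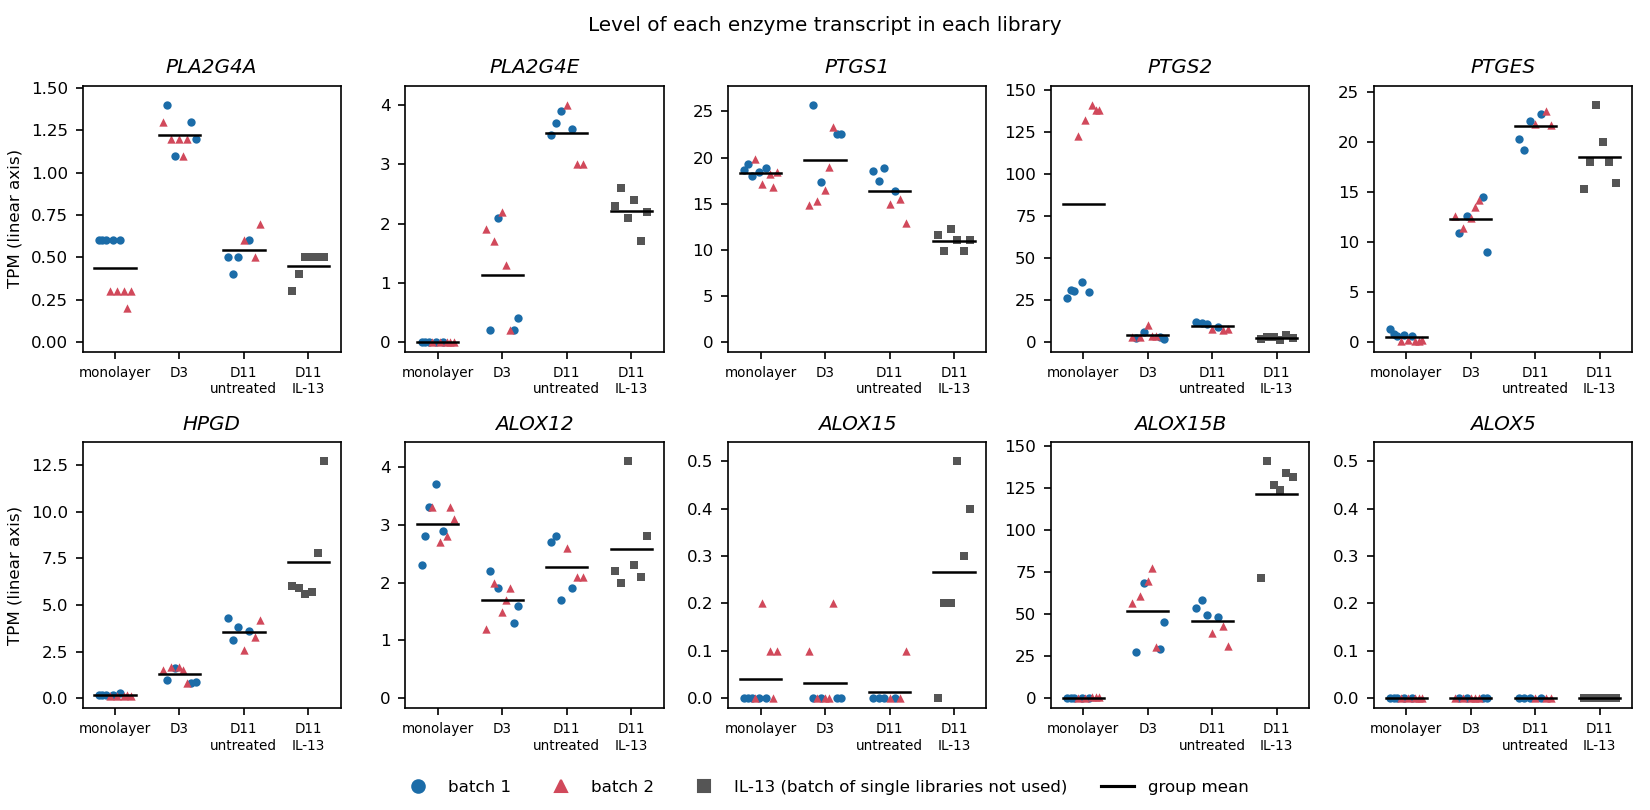
Level of each of the 10 transcripts in TPM (linear axis, its own range in each panel) in every library, by group, with colour and shape for the batch and a line for the group mean. PTGS2 fills 2 separate bands in the monolayer, 26.4 to 35.7 TPM in batch 1 and 122.5 to 141.1 TPM in batch 2, and ALOX5 lies at 0 in all 32 libraries.

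The promoters of PTGS2, PTGES and HPGD are shown because PTGS2 fell from monolayer to D3 while PTGES and HPGD rose, and because PTGS2 fell and HPGD rose with IL-13. Each is the 250 bases before a transcription start in RefSeq (GRCh38.p14), written 5′ to 3′ on the gene's strand. Capitals mark matches on either strand to any of 3 motifs, TATAAA (the TATA box), CCAAT (the CCAAT box) and GGGCGG (the GC box).
PTGS2 (chr1:186680424-186680673, minus strand): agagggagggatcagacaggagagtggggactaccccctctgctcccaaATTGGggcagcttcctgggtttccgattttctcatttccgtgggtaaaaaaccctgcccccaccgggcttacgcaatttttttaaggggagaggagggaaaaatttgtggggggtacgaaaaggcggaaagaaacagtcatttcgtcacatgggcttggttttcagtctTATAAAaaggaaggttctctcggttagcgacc
PTGES (chr9:129753043-129753292, minus strand): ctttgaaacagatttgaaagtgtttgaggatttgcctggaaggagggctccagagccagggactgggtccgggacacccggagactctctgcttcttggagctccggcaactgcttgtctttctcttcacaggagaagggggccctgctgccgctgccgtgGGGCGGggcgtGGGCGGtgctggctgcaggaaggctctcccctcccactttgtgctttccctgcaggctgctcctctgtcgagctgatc
HPGD (chr4:174522489-174522738, minus strand): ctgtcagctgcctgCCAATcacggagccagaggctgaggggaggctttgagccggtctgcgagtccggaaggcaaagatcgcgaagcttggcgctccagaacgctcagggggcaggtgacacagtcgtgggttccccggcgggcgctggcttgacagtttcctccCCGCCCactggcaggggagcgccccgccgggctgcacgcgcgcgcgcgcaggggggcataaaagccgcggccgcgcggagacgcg

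The PTGS2 window alone of these 3 held TATAAA, from -32 to -27 counted back from the start, a motif found in 10.7% of 35116 RefSeq promoters of that length. CCAAT lay at -236 in HPGD and, on the other strand, at -201 in PTGS2, against 32% of promoters. GGGCGG lay at -89 and at -78 in PTGES and, on the other strand, at -85 in HPGD, against 42.6% of promoters. The second HPGD start in the table held none of the 3 motifs. The share of G and C was 50.4% in the PTGS2 window, 61.2% in the PTGES window and 70.8% in the HPGD window, against a median of 58.0% over all promoters. These are matches of letters, not measured sites.

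The 2 members of the cytosolic phospholipase family, PLA2G4A and PLA2G4E, were low in all groups. PLA2G4A (chromosome 1, 186828953 to 186988981, hg38, GENCODE annotation), the calcium-activated enzyme that supplies arachidonic acid for most eicosanoids, was listed at 0.2 to 0.6 TPM in the monolayer (median 0.45), 1.1 to 1.4 TPM at D3 (median 1.2), 0.4 to 0.7 TPM in untreated D11 spheroids (median 0.5) and 0.3 to 0.5 TPM with IL-13 (median 0.5). The D3 libraries lay above all others, and the other 3 groups overlapped. In the limma fit with no filter, the difference from monolayer to D3 was 0.64 (adjusted p = 1.4e-12) and that from D3 to untreated D11 was -0.54 (adjusted p = 7.1e-10), with the same directions within each batch. Untreated D11 and monolayer did not pass the test (0.10 ± 0.058, limma adjusted p = 0.11). The monolayer batches stood apart, at 0.6 TPM in all 5 libraries of batch 1 and 0.2 to 0.3 TPM in the 5 of batch 2, and the D11 difference was -0.09 within batch 1 and 0.32 within batch 2. IL-13 left a difference of -0.12 ± 0.066 that did not pass (limma adjusted p = 0.14), but it passed after median-of-ratios scaling, at -0.21.

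PLA2G4E (chromosome 15, 41981582 to 42051190), a relative that transfers acyl groups to phosphatidylethanolamine, was listed at 0 in all 10 monolayer libraries. It was at 0.2 to 2.2 TPM at D3 (median 1.3), 3.0 to 4.0 TPM in untreated D11 spheroids (median 3.6) and 1.7 to 2.6 TPM with IL-13 (median 2.25). Untreated D11 libraries lay above all others. The D3 values split as IVL did, with 1.3 to 2.2 TPM in libraries 1, 3, 4, 5 and 6 and 0.2 to 0.4 TPM in libraries 2, 7, 8 and 9. In the limma fit with no filter it was higher at D3 (adjusted p = 2.5e-06) and in untreated D11 spheroids (adjusted p = 5.3e-13) than in the monolayer, with no fold given against a group at 0. It rose by 1.22 from D3 to untreated D11 in that fit (limma adjusted p = 3.6e-07), with 1.56 within batch 1, 0.89 within batch 2 and 1.24 without D3 libraries 4 and 7. It was lower with IL-13 by a call at the edge of the threshold (-0.45 ± 0.19, limma adjusted p = 0.0497). The ranges did not overlap, but the call was lost in 11 of 13 fits that left out 1 library, all but those without untreated libraries 6 or 7 (-0.49 to -0.40, adjusted p = 0.041 to 0.10), and was also lost at a pseudocount of 0.1 (p = 0.25), with no filter (p = 0.064) and with mitochondrial genes removed (p = 0.093). Antisense genes overlap PLA2G4E, and how strand was handled is not given in the sources used here, so their reads cannot be told apart.

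PTGS1 (chromosome 9, 122370530 to 122395703), the constitutive cyclooxygenase, was the steadier of the pair. It was at 16.8 to 19.8 TPM in the monolayer (median 18.4, mean 18.4 ± 0.912 SD, n = 10), 14.9 to 25.7 TPM at D3 (median 19.0), 12.9 to 18.9 TPM in untreated D11 spheroids (median 16.4) and 9.9 to 12.3 TPM with IL-13 (median 11.1). The first 3 groups overlapped, and every IL-13 library lay below every other library. IL-13 lowered it by 0.58 ± 0.090 against untreated D11 (limma adjusted p = 6.0e-06), to 0.670 times the untreated mean. D3 did not pass against monolayer (0.09 ± 0.073, limma adjusted p = 0.28), with 0.22 within batch 1 (adjusted p = 0.037) and -0.04 within batch 2, but was higher by 0.60 after median-of-ratios scaling. It was lower in untreated D11 than in D3 spheroids (-0.26 ± 0.081, limma adjusted p = 0.0050), by -0.28 within batch 1 and by -0.27 within batch 2, where it did not pass (adjusted p = 0.068). The difference from monolayer to untreated D11 was -0.18 ± 0.079 (limma adjusted p = 0.039) and turned after median-of-ratios scaling, to 0.39 with an adjusted p of 2.7e-04. It was -0.06 within batch 1 and -0.30 within batch 2, and the call was lost without any 1 of monolayer libraries 4, 8 and 10 or untreated libraries 4, 5 and 7 (-0.18 to -0.14, adjusted p = 0.054 to 0.11). At D3, PTGS1 ran against IVL, with 22.5 to 25.7 TPM in libraries 2, 7, 8 and 9 and 14.9 to 19.0 TPM in the other 5.

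PTGS2 (chromosome 1, 186671791 to 186680427), the inducible cyclooxygenase of inflammation and wounding, had its highest levels in the monolayer and differed most between batches there. The 5 batch 1 monolayer libraries were at 26.4, 29.6, 30.3, 30.8 and 35.7 TPM and the 5 of batch 2 at 122.5, 132.0, 137.9, 138.1 and 141.1 TPM. D3 libraries were at 1.8 to 10.0 TPM (median 3.2), untreated D11 libraries at 7.0 to 12.1 TPM (median 9.0) and IL-13 libraries at 1.1 to 4.3 TPM (median 2.7). Each monolayer library lay above each spheroid library in both batches. Untreated D11 overlapped D3, but IL-13 libraries all lay below the untreated ones.

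The D3 mean of PTGS2 was 0.0491 times the monolayer mean, a difference of -3.86 (± 0.28, limma adjusted p = 2.4e-13). The difference was -2.92 within batch 1 and -4.74 within batch 2, and the test of that difference between batches gave -1.82 ± 0.33 (limma adjusted p = 1.1e-04). It rose again by 1.25 ± 0.31 from D3 to untreated D11 (limma adjusted p = 8.0e-04), by 1.51 within batch 1 and 0.75 within batch 2, and by 1.36 without D3 libraries 4 and 7. Untreated D11 spheroids stayed below the monolayer (-2.61 ± 0.31, limma adjusted p = 3.5e-09). That difference was -1.41 within batch 1 and -3.99 within batch 2 (difference between batches -2.57 ± 0.35, limma adjusted p = 3.2e-06). IL-13 brought PTGS2 to 0.283 times the untreated mean (-1.33 ± 0.35, limma adjusted p = 0.0025). IL-13 and D3 spheroids did not pass the test for PTGS2 (-0.09, limma adjusted p = 0.83), a comparison that shares its IL-13 libraries with the former. The level of PTGS2 was 4.56 ± 3.12 (SD, n = 10) times that of PTGS1 in the monolayer, 0.222 ± 0.165 times at D3 (n = 9), 0.573 ± 0.0765 times in untreated D11 spheroids (n = 7) and 0.247 ± 0.114 times with IL-13 (n = 6). The monolayer ratios spanned 1.42 to 8.21 over batches whose PTGS2 levels stood apart, so their mean describes neither batch. PTGS2 and PLA2G4A are neighbours on chromosome 1, with 148526 bases between them.

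PTGES (chromosome 9, 129738331 to 129753047), the inducible synthase of prostaglandin E, went the opposite way. It was at 0.1 to 1.3 TPM in the monolayer (median 0.4), 9.0 to 14.5 TPM at D3 (median 12.6), 19.2 to 23.1 TPM in untreated D11 spheroids (median 21.8) and 15.3 to 23.7 TPM with IL-13 (median 18.0). The first 3 groups did not overlap, and the IL-13 libraries spanned the untreated ones. The mean rose 26.3-fold from monolayer to D3 (3.23 ± 0.11, limma adjusted p = 1.1e-21) and 1.75-fold from D3 to untreated D11 (0.74 ± 0.12, limma adjusted p = 2.9e-06), the latter lost when mitochondrial genes were removed (0.17, adjusted p = 0.30). In the monolayer the batches lay in the reverse order to PTGS2, at 0.6 to 1.3 TPM in batch 1 and 0.1 to 0.2 TPM in batch 2. The rise to D3 was 2.82 within batch 1 and 3.60 within batch 2, which differed by 0.78 ± 0.14 (limma adjusted p = 1.5e-04). With IL-13 PTGES did not pass (-0.27 ± 0.14, limma adjusted p = 0.096). That difference was called lower after median-of-ratios scaling (-0.51), at a pseudocount of 5 (-0.19, adjusted p = 0.036) and without IL-13 library 3 (-0.34, adjusted p = 0.045).

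**Figure D2:**
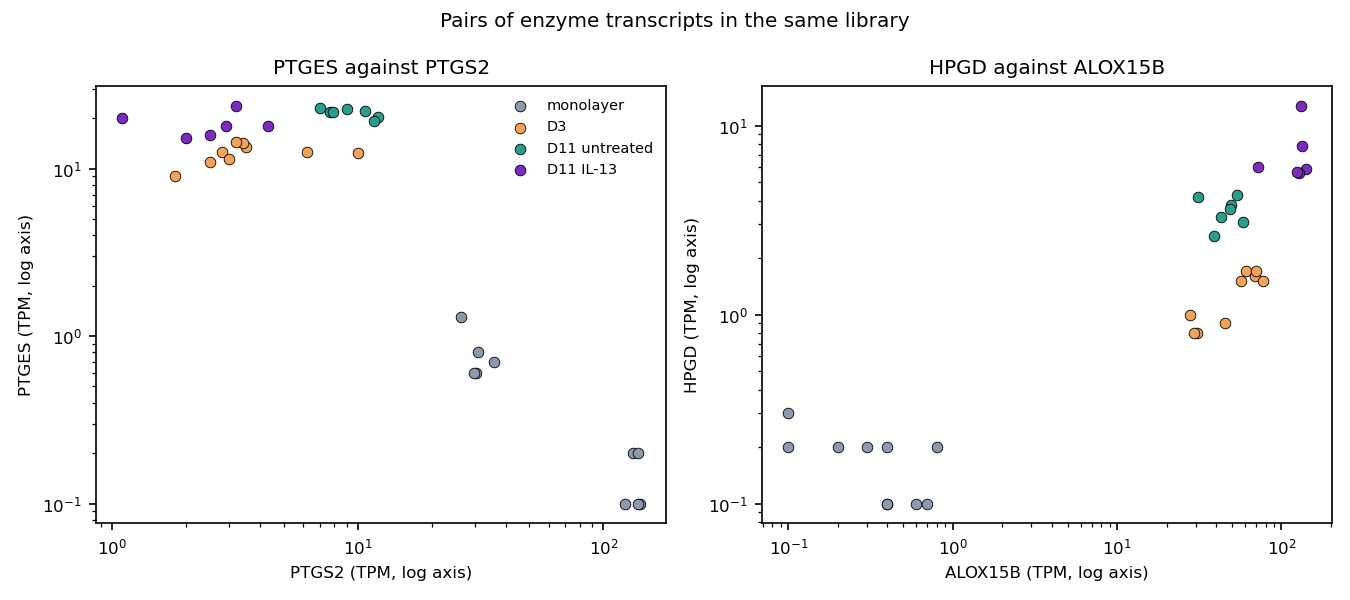
PTGES against PTGS2 (left) and HPGD against ALOX15B (right), each point 1 library in TPM on log axes, coloured by group. Monolayer libraries hold PTGS2 at 26.4 TPM or more with PTGES at 1.3 TPM or less, and every spheroid library holds PTGES at 9.0 TPM or more with PTGS2 at 12.1 TPM or less.

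HPGD (chromosome 4, 174490177 to 174523154), the dehydrogenase that inactivates prostaglandins, stepped up at each stage. It was at 0.1 to 0.3 TPM in the monolayer (median 0.2), 0.8 to 1.7 TPM at D3 (median 1.5), 2.6 to 4.3 TPM in untreated D11 spheroids (median 3.6) and 5.6 to 12.7 TPM with IL-13 (median 5.95). No groups overlapped. The differences were 0.94 ± 0.11 from monolayer to D3 (limma adjusted p = 5.9e-09), 1.01 ± 0.12 from D3 to untreated D11 (limma adjusted p = 1.7e-08) and 0.82 ± 0.14 with IL-13 (limma adjusted p = 1.7e-05). The first 2 of these held in both batches, at 0.75 and 1.11 for D3 against monolayer and 1.19 and 0.84 for untreated D11 against D3. The IL-13 mean was 2.05 times the untreated mean, with library 6 at 12.7 TPM above the rest (5.6 to 7.8 TPM), and the difference was 0.66 without that library. At D3, HPGD was at 1.5 to 1.7 TPM in the 5 libraries with high IVL and 0.8 to 1.0 TPM in the other 4. The level of PTGES relative to HPGD was 2.55 ± 1.79 (SD, n = 10) in the monolayer, 10.7 ± 4.32 at D3 (n = 9), 6.23 ± 1.21 in untreated D11 spheroids (n = 7) and 2.82 ± 1.03 with IL-13 (n = 6). Monolayer HPGD was at 0.1 to 0.3 TPM in steps of 0.1 TPM, so the monolayer ratio (0.5 to 6.5) is uncertain.

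**Figure D3:**
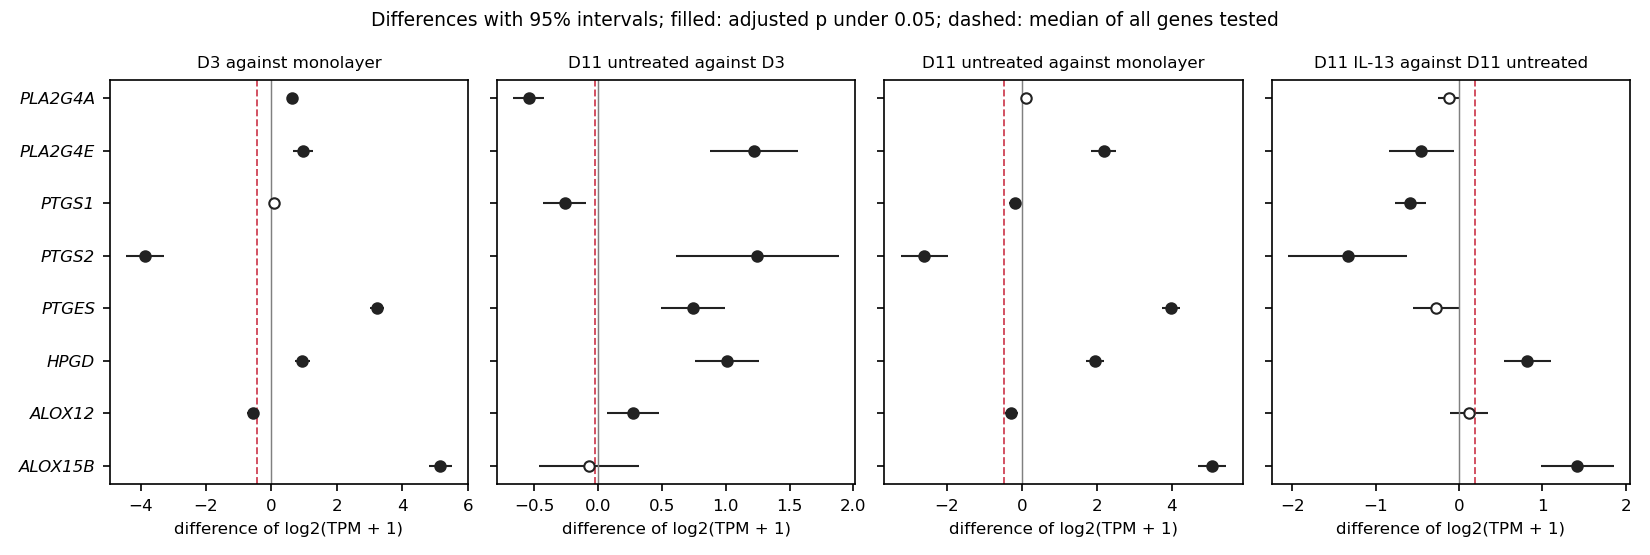
Difference of log2(TPM + 1) with its 95% interval for the 8 members kept by the filter, 1 panel per comparison, each with its own axis. Filled points have an adjusted p under 0.05, the dashed line is the median of all 12221 genes (-0.44, -0.02, -0.48 and 0.19 from left to right), and the fitted values of PLA2G4E against the monolayer are no fold since it is listed at 0 there.

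Of the 4 lipoxygenase members, ALOX15B had the highest level in spheroids, while ALOX12B, outside these members, was higher in untreated D11 spheroids (57.3 to 96.4 TPM). ALOX15B (chromosome 17, 8039017 to 8049134), an epithelial arachidonate lipoxygenase, was at 0.1 to 0.8 TPM in the monolayer (median 0.4), 27.6 to 77.7 TPM at D3 (median 56.5), 31.2 to 58.7 TPM in untreated D11 spheroids (median 48.6) and 71.6 to 141.2 TPM with IL-13 (median 129.55). All spheroid libraries lay above all monolayer libraries, D3 and untreated D11 overlapped, and all IL-13 libraries lay above the untreated ones. The mean was 130-fold higher at D3 than in the monolayer (5.15 ± 0.17, limma adjusted p = 8.4e-22), with 5.07 within batch 1 and 5.19 within batch 2. D3 and untreated D11 did not pass the test (-0.07 ± 0.19, limma adjusted p = 0.76), with 0.38 within batch 1 (adjusted p = 0.14), -0.59 within batch 2 (adjusted p = 0.038) and a difference between batches of -0.97 ± 0.34 (limma adjusted p = 0.040). It was called lower in untreated D11 spheroids with mitochondrial genes removed (-0.65, adjusted p = 0.0031). The D3 libraries with high IVL held 56.5 to 77.7 TPM and the other 4 held 27.6 to 45.5 TPM. The D11 fit within batches contains D3 libraries 4 and 7, and the pooled value was -0.07 without them.

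IL-13 raised ALOX15B 2.64-fold over the untreated mean (1.42 ± 0.21, limma adjusted p = 3.9e-06). Library 1 was at 71.6 TPM and the other 5 IL-13 libraries at 124.1 to 141.2 TPM. Without library 1 the difference was 1.57, and after median-of-ratios scaling of all libraries it was 1.16. IL-13 spheroids were also above D3 spheroids, by 1.35 (limma adjusted p = 1.5e-06), though here the ranges overlapped through library 1.

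ALOX12 (chromosome 17, 6996065 to 7010736), the platelet-type lipoxygenase, stayed low in all groups. It was at 2.3 to 3.7 TPM in the monolayer (median 3.0), 1.2 to 2.2 TPM at D3 (median 1.7), 1.7 to 2.8 TPM in untreated D11 spheroids (median 2.1) and 2.0 to 4.1 TPM with IL-13 (median 2.25). Only D3 and monolayer did not overlap. It fell by 0.58 ± 0.091 from monolayer to D3 (limma adjusted p = 1.1e-06), a call lost with quantile normalization (-0.18, adjusted p = 0.064). It rose by 0.28 ± 0.10 from D3 to untreated D11 (limma adjusted p = 0.015), which turned to -0.14 with mitochondrial genes removed and was 0.25 within batch 1 (adjusted p = 0.13) and 0.30 within batch 2. Untreated D11 was below monolayer (-0.30 ± 0.097, limma adjusted p = 0.0054), but above it by 0.13 after median-of-ratios scaling, with no call, and the values within batches were -0.29 (adjusted p = 0.054) and -0.31. IL-13 gave 0.12 ± 0.11 (limma adjusted p = 0.41), and -0.07 after that scaling. Of 6 platelet markers 3 were among the symbols given, and of these only GP1BA was kept (up to 8.8 TPM). Antisense genes overlap ALOX12, whose reads cannot be told apart for lack of strand information.

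ALOX15 (chromosome 17, 4630902 to 4642294), a lipoxygenase known from allergic airway and esophageal epithelium, was near 0. It was at 0 to 0.2 TPM in the monolayer, with 3 of 10 libraries above 0, at 0 to 0.2 TPM at D3, with 2 of 9 above 0, and at 0 to 0.1 TPM in untreated D11 spheroids, with 1 of 7 above 0. With IL-13 the libraries were at 0, 0.2, 0.2, 0.3, 0.4 and 0.5 TPM, with 5 of 6 above 0. The values are in steps of the 1 decimal to which the table is rounded, and all of them were under the filter, so no test was made. The IL-13 library at 0 was library 1, which also held the lowest ALOX15B of its group. The highest ALOX15 value, 0.5 TPM, was small beside the lowest ALOX15B value with IL-13, 71.6 TPM.

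ALOX5 (chromosome 10, 45374176 to 45446119), the lipoxygenase that starts leukotriene synthesis in leukocytes, was listed at 0 in all 32 libraries.

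The order of group means was monolayer, untreated D11, D3 and IL-13 for PTGS2, of which the last 2 did not pass the test. For PTGES it was untreated D11, IL-13, D3 and monolayer, of which the first 2 did not pass and the call between IL-13 and D3 was lost under several settings, given below with the ranges. For HPGD it was IL-13, untreated D11, D3 and monolayer, with all neighbours called. For ALOX15B it was IL-13, D3, untreated D11 and monolayer, of which D3 and untreated D11 did not pass. PTGS1 ran D3, monolayer, untreated D11 and IL-13, of which the first 2 did not pass. ALOX12 ran monolayer, IL-13, untreated D11 and D3, of which the middle 2 did not pass and the first 2 were not compared. PLA2G4E ran untreated D11, IL-13, D3 and monolayer, with all neighbours called after the filter. Its first pair was at the edge and was not called with no filter. PLA2G4A ran D3, untreated D11, IL-13 and monolayer, of which untreated D11 and IL-13 did not pass and the last 2 were not compared.

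Ranges of the 8 tested members did not overlap for 7 between D3 and monolayer, 5 higher and 2 lower at D3. This held for 44.3% of all genes, 5.29% higher and 39% lower. Members higher than the monolayer, at D3 or in untreated D11 spheroids, had been kept through spheroids, where they were high. PLA2G4A, lower at D11 than at D3, had been kept only through D3. Such counts are therefore no support for a difference. Between untreated D11 and D3 the count was 4, of which 3 higher and 1 lower (all genes 38%, 19.1% higher and 19% lower). Between untreated D11 and monolayer it was 5, of which 4 higher and 1 lower (all genes 58.7%, 13.4% higher and 45.3% lower). With IL-13 against untreated D11 it was 5, of which HPGD and ALOX15B higher and PTGS1, PTGS2 and PLA2G4E lower (all genes 13.7%, 9.66% higher and 4.03% lower). IL-13 against D3, which shares libraries with the comparisons above, had 4, with PTGES and HPGD higher and PTGS1 and PLA2G4A lower (all genes 29.5%, 21.5% higher and 8.02% lower), though PTGES turned to -0.18 with mitochondrial genes removed. The PTGES call (0.47, limma adjusted p = 0.0024) was also lost at a pseudocount of 0.1 (0.32, adjusted p = 0.33), with quantile normalization (0.22, adjusted p = 0.088) and with library weights (0.22, adjusted p = 0.16). In that comparison 5 of 8 members were called higher and 2 lower, beside 66% of all genes called, 45.1% higher and 20.9% lower.

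Batch was part of several of these values. The change from monolayer to D3 differed between batches for 3 of 8 members (PTGS2, PTGES and PLA2G4A), beside 45.2% of all genes. From D3 to untreated D11 it differed for 1 (ALOX15B), beside 23.8%, and from monolayer to untreated D11 for 4 (PTGS2, PTGES, ALOX15B and PLA2G4A), beside 48.3%. Without D3 libraries 4 and 7 the first count was 7 and the second was 4. The share of all genes was not counted in that setting, so these counts cannot be read as particular to the members. The IL-13 columns could be matched to their group only, so no value of IL-13 within a batch is given. Taking the 1 batch 2 library of that group to be each of the 6 columns in turn left every IL-13 call of a member as it was.

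**Figure D4:**
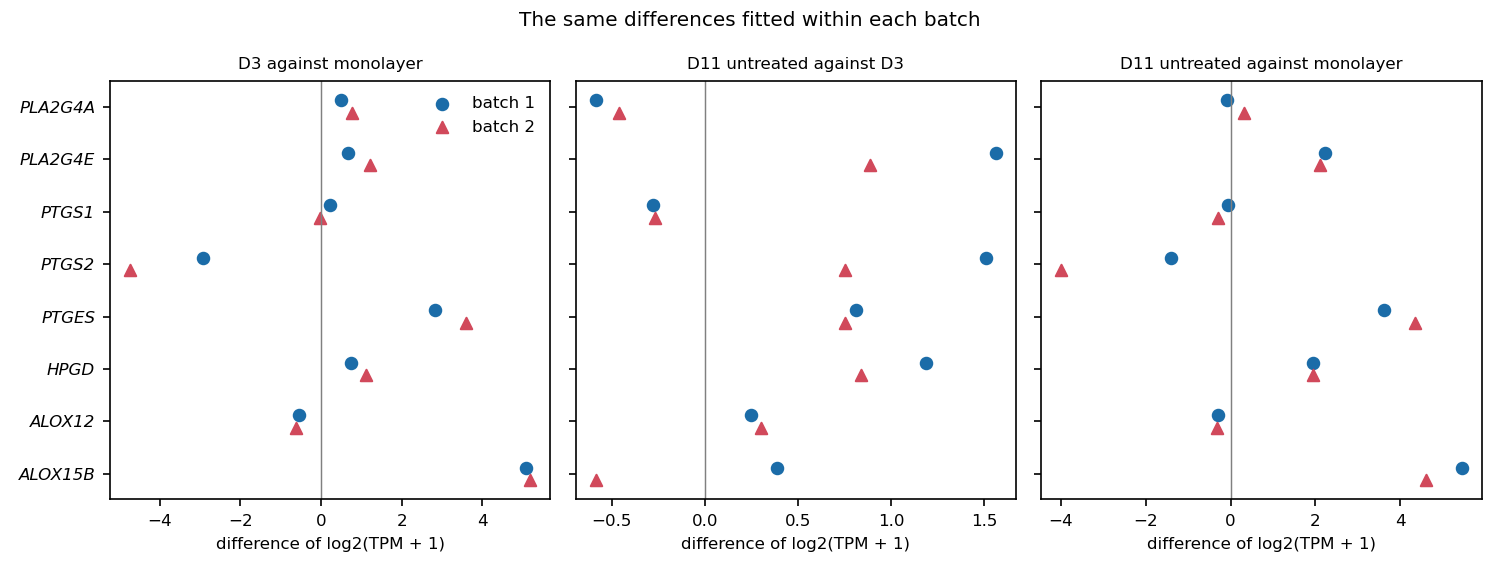
Difference of log2(TPM + 1) for the 8 tested members fitted within batch 1 (circles) and within batch 2 (triangles), for the 3 comparisons without IL-13, each panel with its own axis. PTGS2 lies at -2.92 and -4.74 in the first panel and at -1.41 and -3.99 in the third, and ALOX15B lies on either side of 0 in the second, at 0.38 and -0.59.

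The genes whose levels were most like those of a member over the 32 libraries, by Pearson correlation of log2(TPM + 1) as a description across groups, were IL1B (0.98), USP43 (0.97) and IRAK2 (0.97) for PTGS2. IL1B encodes the cytokine interleukin 1 beta and IRAK2 a kinase of its receptor pathway. For PTGES they were MT1X, RAPGEFL1 and NOTCH3 (0.98 to 0.99), and for HPGD they were RNF141, AIF1L and the squamous differentiation gene CRNN (0.98 each). For ALOX15B they were SERPINB13, USH1G and GPNMB (0.99 each), and for PLA2G4E the suprabasal genes KRT10 and DSG1 with PGLYRP4 (0.99 each). PLA2G4A had ATP1B3 at 0.95, while PTGS1 (PROCR, 0.83) and ALOX12 (TOP3B, 0.82) had no gene closer than that. Among the members themselves, PTGES and ALOX15B correlated at 0.95, and PTGS2 at -0.87 with each of them, over libraries that share their groups and batches.

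Of the rest of the pathway, 41 other genes of 68 listed were tested. From monolayer to D3, 22 rose and 10 fell (median 0.44, all genes -0.44), beside 12.7% and 68.2% of all genes. Of those that rose, AKR1C3, PLA2G2F, PLA2G3, PLA2G4D, PLA2G4F, PLA2G10, CYP4F3, CYP4F12, EPHX3 and SDR9C7 had monolayer means of 0.27 TPM or less. They were kept through spheroids, where they were high, as was ALOX12B (monolayer mean 0.39 TPM). Count, median and their p-values after the filter are therefore no support for a rise. The calls of PLA2G4F, AKR1C3 and ALOX12B were the same in the fit with no filter. The largest rises were PLA2G4F, a cytosolic phospholipase (0 to 0.6 against 7.5 to 23.3 TPM, 3.63 ± 0.17), CBR1, a carbonyl reductase that can act on prostaglandin E (187 ± 61.7 against 767 ± 119 TPM, 2.10 ± 0.14), the epidermal lipoxygenase ALOX12B (1.97 ± 0.31) and the prostaglandin F synthase AKR1C3 (1.80 ± 0.072). The largest falls were PTGER4, CYP4V2 (-1.44 ± 0.13), the epidermal lipoxygenase ALOXE3 (-0.89 ± 0.22) and MGLL (-0.73 ± 0.13), at limma adjusted p-values up to 6.2e-04. The ALOXE3 call was lost after median-of-ratios scaling and within batch 1. PTGER4, a receptor for prostaglandin E, was at 1.0 to 5.0 TPM in the monolayer and listed at 0 in all 22 spheroid libraries. It was the 1 prostanoid receptor of 9 that was kept, only through the monolayer, where it was high. Its p-value after the filter is therefore no support for a fall, and the call was the same in the fit with no filter.

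From D3 to untreated D11, 18 of the 41 rose and 15 fell (median 0.13, all genes -0.02), beside 33.6% and 35.8% of all genes. Among those that rose, CYP4F22 (means of 0.52 TPM at D3 and 8.43 TPM in untreated D11) and PLA2G2F were kept through D11 libraries, where they were high. The count and their p-values after the filter are therefore no support for a rise. The CYP4F22 call was the same in the fit with no filter. SDR9C7 (0 to 5.2 against 39.5 to 58.4 TPM, 4.21 ± 0.31), ALOX12B (0.7 to 12.8 against 57.3 to 96.4 TPM, 3.86 ± 0.34), the secreted phospholipase PLA2G3 (3.38 ± 0.20) and CYP4F22 (2.64 ± 0.12) rose most. ALOX12B, SDR9C7 and CYP4F22 are known for making the lipids of the cornified barrier. CYP4F11 (-1.71 ± 0.15), the aldose reductase AKR1B1 (-1.24 ± 0.084), PLA2G4F (-1.15 ± 0.19) and LTB4R, a receptor for leukotriene B (-1.07 ± 0.11), fell most. These 8 had limma adjusted p-values up to 3.6e-06. CYP4F11 was kept mainly through D3 libraries, where it was high (mean 3.58 TPM, against 0.47 TPM or less in the other groups). Its p-value after the filter is therefore no support for a fall, and the call was the same with no filter. Untreated D11 against monolayer had 28 higher and 8 lower (median 0.63, all genes -0.48), beside 21% and 63.5% of all genes. The filter limits this count as it did that of D3 against monolayer. ALOX12B (5.83 ± 0.33), SDR9C7 (5.49 ± 0.30), PLA2G3 (4.42 ± 0.19) and the epoxide hydrolase EPHX3 (3.28 ± 0.24) led the rises. CYP4V2 (-2.34 ± 0.13), PTGER4, AKR1B1 (-1.63 ± 0.082) and PTGES2 (-1.16 ± 0.13) were the largest falls (limma adjusted p = 1.8e-09 or less). For PTGER4, kept only through the monolayer, that p-value is no support for a fall, and the call was the same with no filter.

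With IL-13, 13 of the 41 rose and 9 fell (median 0.19, the same as over all genes to 2 decimals), beside 39.2% and 8.49% of all genes. After median-of-ratios scaling 7 of the 41 rose, beside 2348 of all 12221 genes. The falls were CYP4F22 (-2.04 ± 0.13), PLA2G4B (-1.82 ± 0.49), SDR9C7 (-1.75 ± 0.34), ALOX12B (-1.54 ± 0.38), PLA2G4D (-1.12 ± 0.22), AKR1C3 (-0.90 ± 0.089), PLA2G3 (-0.87 ± 0.22), PLA2G10 (-0.50 ± 0.087) and CYP4F3 (-0.49 ± 0.083) (limma adjusted p up to 0.0034). The PLA2G3 call was lost at a pseudocount of 0.1 (limma adjusted p = 0.10). The ranges of PLA2G4B overlapped (0.4 to 12.4 against 0 to 5.0 TPM), and it shares exons with a readthrough transcript, so its value is uncertain. So are those of AKR1C3, GGT1 and the CYP4F genes, which have close paralogs. ALOX12B was at 57.3 to 96.4 TPM in untreated libraries and at 18.3 to 25.9 TPM with IL-13, while ALOX15B was higher with IL-13. Of the phospholipase list, 5 of 14 tested genes fell (8.49% of all genes), with PLA2G4E among them by its call at the edge, lost with no filter. PLA2G10 (1.3 to 1.8 TPM untreated, 0.5 to 1.1 TPM with IL-13) passed the filter mainly through untreated libraries, where it was high. The count is therefore no support for a fall. On the same list 2 rose (39.2% of all genes), PLA2G4F (1.05 ± 0.21) and ANXA1 (0.53 ± 0.092), an inhibitor of phospholipase action.

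LTA4H, which makes leukotriene B and also works as a peptidase, was at 15.3 to 17.9 TPM in untreated libraries and at 33.2 to 48.0 TPM with IL-13 (1.21 ± 0.069, limma adjusted p = 6.9e-15), beside ALOX5 at 0. GGT1 (0.95 ± 0.14), PTGES2 (0.70 ± 0.15), PTGDS (0.57 ± 0.15) and EPHX2 (0.40 ± 0.090) also rose (limma adjusted p up to 0.0033). PTGDS (0.1 to 1.2 TPM untreated, 0.3 to 2.1 TPM with IL-13) passed the filter mainly through IL-13 libraries, where it was high. Its p-value is therefore no support for a rise. The PTGDS call was the same with no filter but was lost in a fit of the 2 groups alone. All 4 tested genes of prostaglandin transport and breakdown were called higher, as were 39.2% of all genes: HPGD, the reductases ZADH2 (0.38 ± 0.12) and PTGR1 (0.36 ± 0.093), and PTGR2 (0.34 ± 0.14, limma adjusted p = 0.049). Of these HPGD alone was called after median-of-ratios scaling, and PTGR2 kept its call in 2 of 13 fits without 1 library, those without untreated library 6 or IL-13 library 1 (0.25 to 0.45 over the 13). CYP4F12 (0.36 ± 0.14), AKR1B1 (0.31 ± 0.094) and MGST2 (0.28 ± 0.091) also rose but lost their calls after that scaling. CYP4F12 lost it too without any 1 of untreated libraries 6 and 7 and IL-13 libraries 4 and 6 (0.28 to 0.43 over 13 fits).

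**Figure D5:**
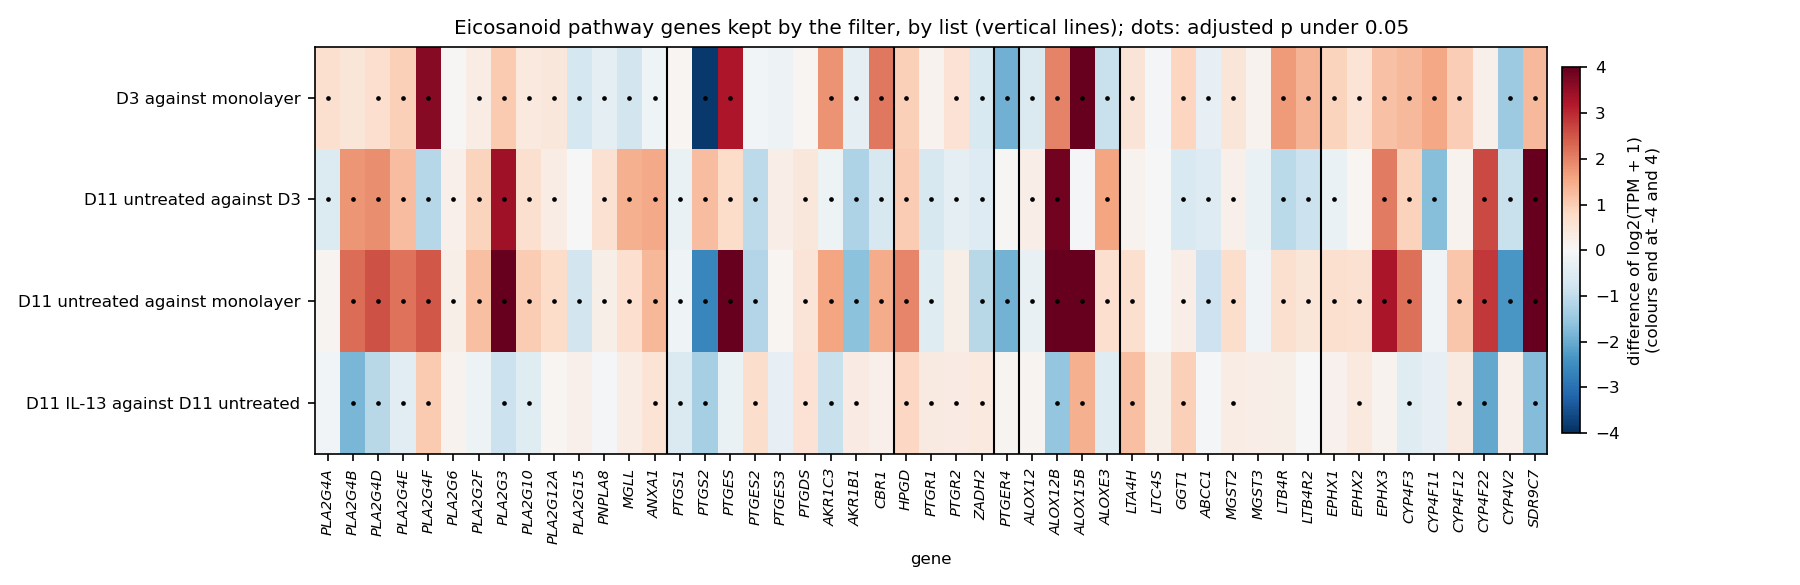
Difference of log2(TPM + 1) for the 49 pathway genes kept by the filter, members included, in the 4 comparisons (one per line of squares), grouped by role between vertical lines, with red for higher, blue for lower and a dot for an adjusted p under 0.05. Colours end at -4 and 4. ALOX12B is red in the 3 upper lines and blue with IL-13, and ALOX15B is red with IL-13.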

How the data were processed

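The table the authors deposited holds TPM for 19345 symbols in 32 libraries, rounded to 1 decimal. The build is hg38, as listed per the submitters' processing notes, and the aligner, quantifier and strand setting were not given in the sources used here. Because TPM holds no read numbers, errors come from the spread between libraries, and a large rise of abundant transcripts pushes down the rest. A gene at exactly 0 may be a failed estimate and is called listed at 0. By name, 26 columns matched 1 sample each. The 6 IL-13 columns matched only their group and were given its share of batch 2 (1 of 6).

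Values entered limma 3.58.1 (R 4.3.3) as log2(TPM + 1), with group, batch and an intensity trend, after a filter of 1 TPM in 6 libraries. The interaction with batch was fitted without IL-13. The fit was tested on simulated data. No libraries of a group were near copies. Replicate numbers did not pair libraries and were not used as a block. The closing section gives the alternatives tried.

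Named were all 10 members, the 4 other pathway genes that rose most and the 4 that fell most in each comparison, all pathway genes called with IL-13, and the 3 genes most like each member. The members and lists were chosen with earlier results of these data known. The gene name table held 18162 of the symbols. Coordinates are from the GENCODE annotation of hg38. RefSeq (GRCh38.p14) gave promoters for 7 of the 10 members. Plots used matplotlib 3.10.9. 1 part of the culture protocol is not reported here.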

Additional observations from a re-analysis of the deposited data

Results flagged for a closer look

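Single libraries lay far from the rest of their group in 6 of 35 pairs of member and group (Dixon's criterion at 95%, where chance flags about 1 in 20). With IL-13, HPGD was at 12.7 TPM in library 6 and ALOX15B at 71.6 TPM in library 1. The other 4 were low values in steps of 0.1 TPM: HPGD at 0.3 TPM in monolayer library 7, and ALOX15 at 0.2 TPM in monolayer library 6, at 0.2 TPM in D3 library 7 and at 0.1 TPM in untreated D11 library 7.

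The change differed between the batches by an interaction test in limma for 8 pairs of member and comparison, given as batch 2 minus batch 1 on the log2 scale. From monolayer to D3 the differences were -1.82 for PTGS2, 0.78 for PTGES and 0.29 for PLA2G4A. From D3 to untreated D11 it was -0.97 for ALOX15B. From monolayer to untreated D11 they were -2.57 for PTGS2, 0.72 for PTGES, -0.85 for ALOX15B and 0.42 for PLA2G4A. PTGS2, PTGES and PLA2G4A had monolayer batches that did not overlap, and the part of the monolayer cultures in these differences was not tested.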

How the results depend on the processing

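Over the fits that left out 1 library, 320 of 320 counts kept within 1.5 times and 1433 of 1472 values of single genes kept their direction and side of the threshold. Over the other alternatives this held for 301 of 339 counts and 1385 of 1469 values. Median-of-ratios scaling gave 4061 and 4051 genes higher and lower for D3 against monolayer, 4902 and 4915 for untreated D11 against monolayer, 2348 and 2521 with IL-13 and 3930 lower for IL-13 against D3. Quantile normalization gave 3706 and 4421, 4352 higher, 2289 and 2536, and 4468 lower. Without mitochondrial genes there were 1663 and 8018 for untreated D11 against D3, 1479 higher against monolayer and 1841 and 6570 for IL-13 against D3, with 3 members higher in the first and the last. Members called lower numbered 1 for untreated D11 against D3 (10-library filter, library weights), 1 for IL-13 against D3 (10-library filter), 1 for D3 against monolayer (quantile), 1 for untreated D11 against monolayer (both scalings, batch 1 alone) and 5 with IL-13 (both scalings). Members whose change differed between batches from D3 to untreated D11 numbered 0 (pseudocount 0.1, no filter, median of ratios, mitochondrial genes removed), 3 (library weights) and 4 (without D3 libraries 4 and 7), and from monolayer to D3 they numbered 7 in the latter 2 settings. The limma interaction test called 1 and 3 in those 2 comparisons as reported. The share of all genes with such a difference was not counted in the other settings.

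Directions turned as follows. For untreated D11 against monolayer, PTGS1 was 0.39 (median of ratios) and 0.25 (quantile), ALOX12 0.13 and 0.16, and PLA2G4A -0.11 (mitochondrial genes removed), -0.095 (batch 1 alone) and -0.034 (library weights). With IL-13, ALOX12 was -0.067 and -0.082 under these scalings. For untreated D11 against D3, ALOX12 was -0.14 without mitochondrial genes, and ALOX15B was 0.38 (batch 1 alone), 0.070 (library weights), and -0.17 to 0.050 with 1 library left out, above 0 without D3 library 4 or untreated library 7. For D3 against monolayer, PTGS1 was -0.036 (batch 2 alone) and -0.019 (library weights). For IL-13 against D3, PTGES was -0.18 and ALOX12 -0.037 without mitochondrial genes, and PTGS2 was 0.075 (pseudocount 5), 0.79 (library weights, adjusted p = 0.037), 0.061 (without D3 libraries 4 and 7) and -0.20 to 0.099 with 1 library left out, above 0 without D3 library 4, D3 library 5 or IL-13 library 4. The causes were not tested.

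The PLA2G4A difference between untreated D11 and monolayer was called without untreated library 2 (0.13, limma adjusted p = 0.041).

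Libraries with the same number correlated in their deviations at -0.44 to 0.36, and 1 of 9, 1 of 7 and 0 of 7 correlated best with their own number. With the replicate number as a block, members called lower for untreated D11 against D3 were 1, since PTGS1 was no longer called (-0.22, adjusted p = 0.093). IL-13 and untreated D11 share no numbers. Depth is unknown, which limits what can be said of ALOX15 and the other transcripts under 1 TPM.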
